A study of Mus musculus with 9 samples.

Results

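The genes described are 10 genes of the NRF2 antioxidant pathway, Nfe2l2, Keap1, Nqo1, Gclc, Gclm, Txnrd1, Srxn1, Slc7a11, Gsr and Prdx1, taken by symbol from a named list. They are 10 of 55487 gene identifiers counted, and all 10 were among the 14312 genes with enough reads for testing. They were measured in mouse RAW264.7 cells, an established macrophage-like line, that had received no stimulus. The comparison took in 3 genotypes with 3 libraries each: wild-type cells, cells in which the transcription factor C/EBPδ was knocked out with CRISPR/Cas9 (KO), and cells in which CRISPR/Cas9 removed the transactivation domain of C/EBPδ from the endogenous gene (ΔTAD). The ΔTAD cells were made to compare the loss of the whole factor with a factor that still binds DNA but lacks its activating part. No other allele, agent or time point separates the groups. The design text speaks of 3 independent clones, and the labels number the libraries 1 to 3 in each genotype without naming a clone. The p-values therefore measure the spread between these libraries, and edited genotype and the history of the selected clones cannot be told apart.

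NRF2, encoded by Nfe2l2, is a transcription factor that is held at low levels by KEAP1, an adaptor that hands it to a CUL3 ubiquitin ligase. Oxidants and electrophiles modify KEAP1, NRF2 then escapes degradation, pairs with a small MAF protein and binds antioxidant response elements in the promoters of genes for glutathione and thioredoxin metabolism, detoxification and iron storage. In macrophages the pathway is known for limiting oxidative stress and for restraining inflammatory gene expression. NRF2 is controlled mainly through the stability of its protein, which RNA counts do not measure.

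Libraries held 16113306 to 20981829 counted reads, and 3 counts, taken as the floor of detection for counting error, correspond to 0.143 to 0.21 CPM, the counts of a gene scaled to the size of its library. ΔTAD replicate 1 stood apart. The annotated transcript CT010467.1 took 11% of its counts, against 0.303% to 1.16% in the other libraries, and its difference from the other ΔTAD libraries was 142.8 and 143.4 times sampling noise (chi-square per degree of freedom), against 1.98 to 4.12 for all other pairs of one genotype. Mitochondrial ribosomal RNA took 0.701% of the counts of ΔTAD replicate 1, against 0.0372% to 0.0963% in the other libraries. Scaling by library size alone, an alternative used below, counts all these reads and so lowers the other genes of this library. Some results that involve ΔTAD are therefore also given without this library, and values given only with it can change when it is left out. Cebpd, the edited gene, was at 6.12 to 7.29 CPM in wild-type, 5.22 to 5.61 in KO and 4.90 to 6.19 in ΔTAD libraries, so its total count did not serve as a check of the labels. All 10 macrophage markers examined were expressed, and their summed level was 3805.5 to 4031.2 CPM in wild-type, 5402.8 to 5839.6 in KO and 7875.7 to 8052.5 in ΔTAD libraries. Of 17 markers of lymphocytes, granulocytes, dendritic cells, fibroblasts, epithelium, endothelium and red cells, 13 had at most 3 counts in every library, 10 of them had none, and the sum was 1.61 to 5.09 CPM. Of these 17, 3 could be tested, and 1, Pecam1, was called lower in KO (-1.97 on the log2 scale) and in ΔTAD cells (-3.78). Of the 10 macrophage markers, 7 were called higher and 0 lower in KO, and 8 higher and 1 lower in ΔTAD cells. Over all genes tested, 22.8% were called higher and 22.4% lower in KO, and 26.3% and 23.4% in ΔTAD cells. Among the macrophage markers Lyz2 was the most abundant, with a mean of 1167 CPM in wild-type, 2114 in KO and 4192 in ΔTAD cells. Fcgr3 fell in ΔTAD cells by 1.13 on the log2 scale and Csf1r stood at -0.06 in KO, where it was not called. The part of these marker differences in the results below was not tested.

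To show the regulatory sequence behind these genes, promoters from RefSeq (GRCm38.p6, 250 bases before to 50 after each start site) were searched on both strands for 4 motifs. They were TGACNNNGC, the core of the antioxidant response element, TTGCNNAA, a form bound by C/EBP factors, CCAAT, and TGATGNAA, the composite element bound by ATF4 with a C/EBP partner. The table held 8 of the 10 genes, with 10 promoters. Gclc and Gsr were not among them. The antioxidant core lay in promoters of 5 of these 8 genes (Gclm, Prdx1, Txnrd1, Nfe2l2 and Srxn1), against 14% of all 27025 genes. It was in 5 of the 10 promoters, against 12.4% of all 32851 promoters in the table. The sequences below show the match, in capitals, for the 4 genes in which it precedes a start site. For Txnrd1 the match is in promoter 2 (82858956 to 82859255), and promoters 1 and 3 of that gene held none of the 4 motifs. The match of Srxn1 begins 29 bases after its start site. The sequences are written 5′ to 3′ on the strand of the gene, and a match in the reverse orientation begins with GC.
Gclm (chr3:122245403-122245451, plus strand): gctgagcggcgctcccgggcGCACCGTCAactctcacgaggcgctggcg
Prdx1 (chr4:116685446-116685494, plus strand): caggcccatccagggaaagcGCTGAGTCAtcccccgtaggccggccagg
Txnrd1 (chr10:82859094-82859142, plus strand): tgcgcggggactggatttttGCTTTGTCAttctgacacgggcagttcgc
Nfe2l2 (chr2:75704875-75704913, minus strand): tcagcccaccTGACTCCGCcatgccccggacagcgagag

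Slc7a11 was the only gene of the 8 with the composite element, and it held 2 copies, at positions -66 and -47 from the start site. This motif was in 4.51% of all genes of the table. The stretch is shown because C/EBP factors can take part in this element, with both copies in capitals, the second in reverse orientation.
Slc7a11 (chr3:50443633-50443699, minus strand): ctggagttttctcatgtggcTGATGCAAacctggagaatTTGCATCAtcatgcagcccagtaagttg

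Slc7a11 was also the only gene of the 8 with the C/EBP form, which 12.2% of all genes held. The CCAAT box was in Gclm, Slc7a11 and Txnrd1, against 41.1% of all genes. No match of these motifs overlapped another, and none was found in the promoters of Keap1 and Nqo1. A match states that these letters are in the window and nothing about binding.

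Of the 10 genes, 3 were called in opposite directions in the edited genotypes, 3 in the same direction in both, 2 (Nqo1 and Txnrd1) in ΔTAD cells and not in KO, and 2 (Nfe2l2 and Keap1) in neither. Over all genes tested, 0.692% were called higher in KO and lower in ΔTAD cells and 0.566% the reverse. In both edited genotypes, 17.3% were higher and 15.4% lower. In KO macrophages, 5 genes were higher than in wild-type (Gclc, Gclm, Srxn1, Slc7a11 and Prdx1) and 1 was lower (Gsr), at an adjusted p under 0.01 in edgeR's quasi-likelihood test. Over all 14312 genes tested, 22.8% were called higher and 22.4% lower in that comparison. In ΔTAD macrophages, 2 genes were higher (Gclc and Srxn1) and 6 were lower (Nqo1, Gclm, Txnrd1, Slc7a11, Gsr and Prdx1), while 26.3% of all genes were called higher and 23.4% lower. Under scaling by library size alone, 1 member in place of 2 was called higher in ΔTAD cells, and 39.6% of all calls were higher against 52.9% with the scaling used here. Slc7a11 was also not called in KO cells under that scaling. The median log2 fold change of the 10 genes was 0.12 in KO and -0.18 in ΔTAD cells, beside -0.001 and -0.003 over all tested genes. Without ΔTAD replicate 1 the ΔTAD medians were -0.22 for the 10 genes and -0.035 for all, and 48.5% of all ΔTAD calls were higher. With all libraries, the median absolute log2 fold change over all tested genes was 0.24 in KO and 0.27 in ΔTAD cells. Called changes smaller than these were those of Slc7a11, Gsr and Prdx1 in KO and of Gclm, Txnrd1, Srxn1 and Prdx1 in ΔTAD cells. Fewer cells in a given state and less RNA per cell cannot be told apart in such bulk libraries. Both comparisons use the same wild-type libraries.

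**Figure D1:**
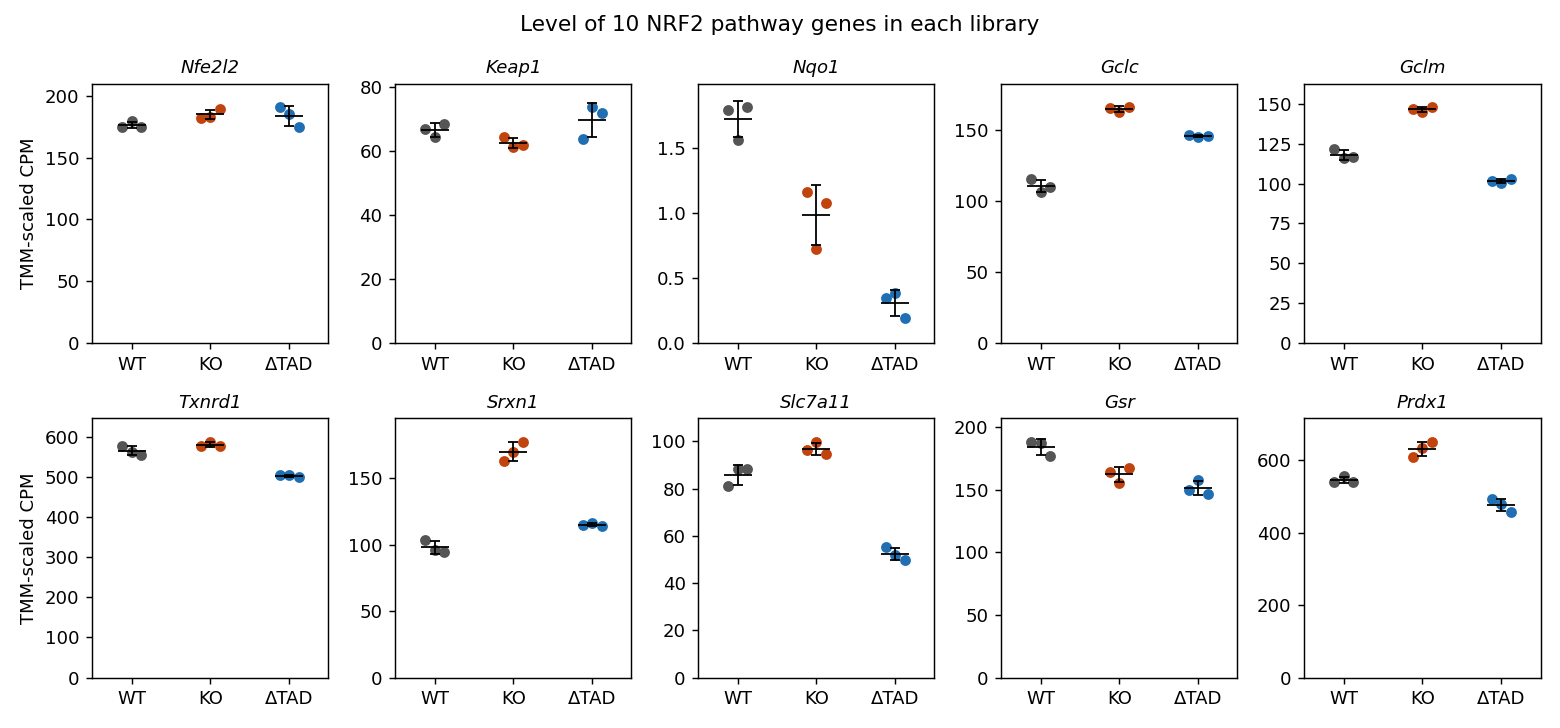
Level of each gene in TMM-scaled CPM (y axes start at 0, a separate scale for each gene) in the 3 wild-type (WT), 3 KO and 3 ΔTAD libraries; points are libraries, and bars show the mean ± SD. Gclm, Slc7a11 and Prdx1 are highest in all KO and lowest in all ΔTAD libraries, and Nqo1 stays at or below 1.82 CPM everywhere.

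Neither the factor nor its sensor was called in either edited genotype against wild-type. Nfe2l2 (ENSMUSG00000015839, minus strand of chromosome 2 from 75675513 to 75704641, GRCm38) was at 175, 179.7 and 175 CPM in the wild-type libraries, 183, 183 and 189 in KO and 191, 186 and 175 in ΔTAD. The KO libraries lay just above the wild-type ones and the ΔTAD libraries overlapped with both. The log2 fold change was 0.07 in KO (95% interval -0.01 to 0.15, edgeR adjusted p = 0.129) and 0.06 in ΔTAD cells (-0.02 to 0.13, adjusted p = 0.188). Without ΔTAD replicate 1 the ΔTAD value was 0.003 (edgeR adjusted p = 0.948). When each library was corrected for its trend over GC content and length of transcripts, an alternative added after the data were seen, the KO value was 0.12 with an adjusted p of 0.00416 in edgeR. Keap1 (ENSMUSG00000003308, minus strand of chromosome 9, 21229730 to 21239361) was at 66.9, 64.4 and 68.5 CPM in wild-type, 64.3, 61.1 and 62.0 in KO and 63.7, 73.7 and 71.7 in ΔTAD libraries. ΔTAD replicate 1 was the lowest ΔTAD library and lay among the KO values. The differences from wild-type were -0.09 in KO (-0.19 to 0.003, edgeR adjusted p = 0.0962) and 0.07 in ΔTAD cells (-0.02 to 0.17, adjusted p = 0.167). With scaling by library size alone the ΔTAD values of Nfe2l2 and Keap1 were -0.03 and -0.01, so no direction is given for them. Keap1 shares 510 exonic bases with Gm16754 on the opposite strand, and since the strand setting of the counting is not given in the sources used here, reads of the 2 genes cannot be told apart.

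Glutathione synthesis begins with cystine, which the antiporter chain encoded by Slc7a11 brings into the cell, and its rate-limiting enzyme is glutamate-cysteine ligase, a pair of the catalytic subunit GCLC and the modifier subunit GCLM. Gclc rose in both edited genotypes. It was at 115, 106.8 and 109.96 CPM in wild-type, 166, 163 and 166 in KO and 147, 145 and 146 in ΔTAD libraries, so the 3 genotypes did not overlap. The log2 fold change was 0.57 ± 0.03 (SE) in KO and 0.40 ± 0.03 in ΔTAD cells, with edgeR adjusted p-values of 5.26e-13 and 4.24e-10. Gclc (ENSMUSG00000032350) lies on the plus strand of chromosome 9 from 77754535 to 77794485.

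Gclm, the other subunit, rose in KO and fell in ΔTAD macrophages. Its level was 121.5, 116 and 117 CPM in wild-type, 147, 144.9 and 148 in KO and 101.3, 100.3 and 102.8 in ΔTAD libraries, again without overlap between genotypes. On the log2 scale the change was 0.31 ± 0.03 in KO (adjusted p = 7.04e-09 in edgeR) and -0.22 ± 0.03 in ΔTAD cells (adjusted p = 2.76e-06). Gclm (ENSMUSG00000028124) lies on the plus strand of chromosome 3 from 122245557 to 122270732, where it shares 296 exonic bases with the antisense transcript Gm17494 and 244 with the pseudogene Gm6061, so its count is uncertain to that extent. The 20 nearest tested genes, 10 on either side, were at a median of -0.32 on the log2 scale in ΔTAD cells (-0.37 without ΔTAD replicate 1), and 12 of them were at least as low as Gclm, with 5 called lower and 5 higher, close to the shares over all genes (23.4% and 26.3%). The part of the location in the fall of Gclm was not tested.

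Slc7a11 showed the same pair of directions with the larger change in ΔTAD macrophages. It was at 81.0, 88.2 and 88.3 CPM in wild-type, 96.3, 99.8 and 94.6 in KO and 55.1, 52.0 and 49.8 in ΔTAD libraries. Every KO library was above, and every ΔTAD library below, all wild-type ones. Slc7a11 changed by 0.18 ± 0.04 on the log2 scale in KO (edgeR adjusted p = 0.000493) and -0.72 ± 0.04 in ΔTAD cells (adjusted p = 2.94e-13). The small KO value was not called under scaling by library size alone (0.16, adjusted p = 0.0208 in edgeR) and was 0.10 after the GC and length correction. Slc7a11 (ENSMUSG00000027737) lies on the minus strand of chromosome 3 from 49892526 to 50443614. Its 20 nearest tested genes had a median of -0.29 in ΔTAD cells (-0.20 without ΔTAD replicate 1), with 8 called lower and 2 higher, and 3 of the 20 were at least as low as Slc7a11. Their median in KO cells was -0.10. The part of the location in these values was not tested.

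Gsr, the enzyme that returns oxidized glutathione to its reduced form, fell in both edited genotypes. Wild-type libraries were at 188, 187 and 177 CPM, KO libraries at 164, 156 and 167 and ΔTAD libraries at 149.9, 158 and 147. The edited libraries lay below all wild-type ones, while KO and ΔTAD overlapped. The log2 fold change was -0.18 ± 0.04 in KO and -0.28 ± 0.04 in ΔTAD cells, with edgeR adjusted p-values of 0.000311 and 9.66e-07. Gsr (ENSMUSG00000031584) is on the plus strand of chromosome 8 from 33652523 to 33698163.

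**Figure D2:**
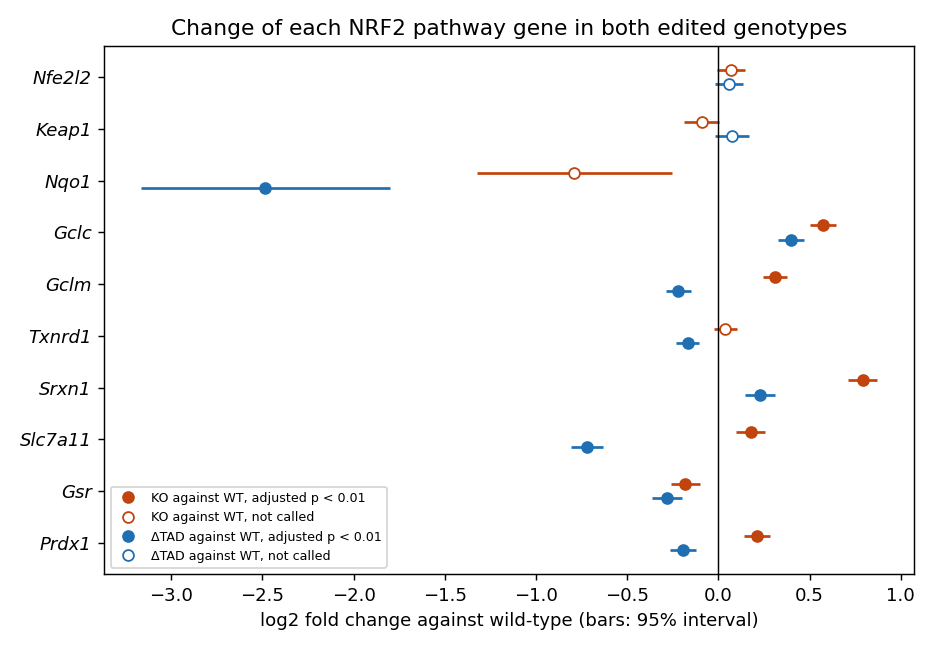
Log2 fold change against wild-type (x axis) of the 10 genes in KO (orange) and ΔTAD (blue) macrophages; bars are 95% intervals and filled points have an edgeR adjusted p under 0.01. Gclm, Slc7a11 and Prdx1 have filled points on both sides of 0, and Nqo1 has by far the widest intervals.

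The thioredoxin genes did not move together. Prdx1 encodes a peroxiredoxin that reduces peroxides, Srxn1 encodes sulfiredoxin, which repairs over-oxidized peroxiredoxins, and Txnrd1 encodes the reductase that recharges cytosolic thioredoxin. Srxn1 (ENSMUSG00000032802, plus strand of chromosome 2, 152105516 to 152111376) was at 103.85, 96.0 and 94.5 CPM in wild-type, 163, 169.85 and 177 in KO and 115, 116 and 114 in ΔTAD libraries. It rose by 0.79 ± 0.04 on the log2 scale in KO, the largest rise among the 10 genes, and by 0.23 ± 0.04 in ΔTAD cells, with adjusted p-values of 8.58e-15 and 2.05e-05 in edgeR. The ΔTAD rise was not called under scaling by library size alone (0.14, adjusted p = 0.0442).

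Prdx1 (ENSMUSG00000028691, plus strand of chromosome 4, 116685544 to 116700822) was the most abundant of the 10 genes per length. It was at 539, 556 and 539 CPM in wild-type, 609, 633 and 649.7 in KO and 492, 478.5 and 457 in ΔTAD libraries. The genotypes did not overlap, with KO above and ΔTAD below wild-type. Log2 fold changes of Prdx1 were 0.21 ± 0.03 in KO (edgeR adjusted p = 1.31e-05) and -0.20 ± 0.03 in ΔTAD cells (adjusted p = 3.1e-05). After the GC and length correction the ΔTAD value was -0.06, with an adjusted p of 0.0542, so that call depends on this choice. The 20 genes nearest to Prdx1 had a median of 0.15 in KO and 0.04 in ΔTAD cells. Of the 20, 8 were at least as high as Prdx1 in KO and 7 at least as low in ΔTAD cells. The part of the location was not tested.

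Txnrd1 (ENSMUSG00000020250, plus strand of chromosome 10, 82833951 to 82897712) was at 576, 562 and 554 CPM in wild-type, 576, 586 and 577 in KO and 504, 504 and 499 in ΔTAD libraries. KO and wild-type overlapped, while all ΔTAD libraries were lower. In KO the log2 fold change was 0.04 (95% interval -0.02 to 0.10, adjusted p = 0.297 in edgeR) and in ΔTAD cells it was -0.17 ± 0.03 (adjusted p = 4.69e-05). The 20 genes nearest to Txnrd1 had a median of -0.07 in ΔTAD cells, or -0.19 without ΔTAD replicate 1, and 8 of them were at least as low as Txnrd1. The part of the location was not tested.

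Nqo1, a quinone reductase often used as a readout of NRF2, was low in these cells and close to the floor of 3 counts in the ΔTAD libraries. It had 36, 27 and 30 counts in the wild-type, 22, 12 and 19 in the KO and 5, 8 and 4 in the ΔTAD libraries, which is 1.56 to 1.82, 0.725 to 1.16 and 0.190 to 0.384 CPM. The genotypes did not overlap. The log2 fold change was -2.48 ± 0.33 in ΔTAD cells (edgeR adjusted p = 5.29e-07), with a 95% interval from -3.17 to -1.80. In KO cells it was -0.79 ± 0.26 with an adjusted p of 0.0123, which missed the threshold. None of the 20 nearest genes was as low in ΔTAD cells, where 7 of them were called lower and 2 higher. In KO cells 9 of the 20 were called lower and 0 higher, and 2 were at least as low as Nqo1. Over all genes 22.4% were lower and 22.8% higher in KO, and 23.4% and 26.3% in ΔTAD cells. The part of the location was not tested. Nqo1 (ENSMUSG00000003849) is on the minus strand of chromosome 8 from 107388225 to 107403206.

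**Figure D3:**
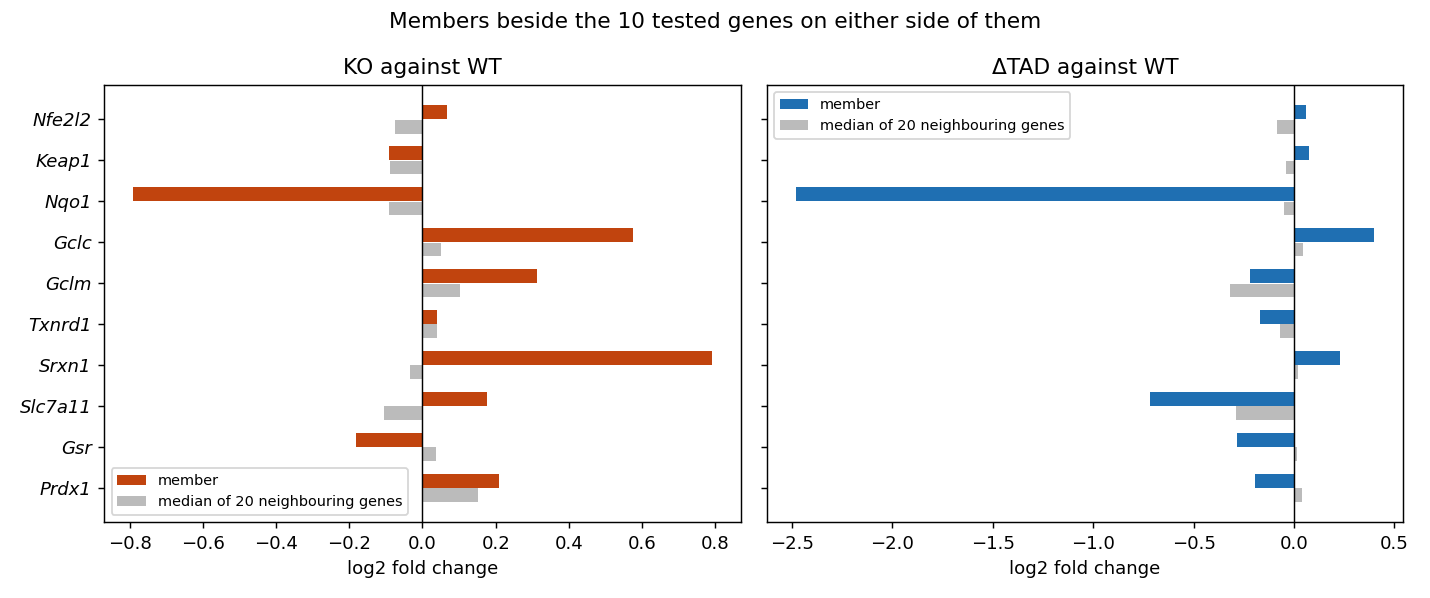
Log2 fold change against wild-type (x axis) of each gene (coloured) and the median of its 20 nearest tested genes (grey) in KO (left) and ΔTAD (right) macrophages. The grey bars of Gclm (-0.32) and Slc7a11 (-0.29) stand out from those of the other genes in ΔTAD cells.

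Compared per kilobase of exon, so that genes can be set side by side, wild-type levels ran from Prdx1 at 179 ± 3.12 CPM per kb (SD, n = 3) through Txnrd1 at 79.6, Gsr at 66.8, Nfe2l2 at 46.5, Srxn1 at 34.8, Gclc at 29.4, Gclm at 18.8, Keap1 at 14.2 and Slc7a11 at 6.17 to Nqo1 at 1.11 ± 0.09. All exons of a gene were merged for its length, which lowers the value of genes with long alternative exons. In KO cells Srxn1 stood at 60.3 ± 2.59 CPM per kb beside Gsr at 58.95 ± 2.13, and these neighbors did not differ beyond their spread. Prdx1 was then at 207 ± 6.74, Gclc at 43.8 ± 0.50 and Slc7a11 at 6.96 ± 0.19. In ΔTAD cells the order was that of the wild-type, from Prdx1 at 156 ± 5.70 to Slc7a11 at 3.76 ± 0.19 and Nqo1 at 0.198 ± 0.07. Gclm at 16.1 ± 0.20 and Keap1 at 14.9 ± 1.13 were then separated by little more than the SD of Keap1.

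KO and ΔTAD macrophages were next compared directly. The level was higher in KO for 7 genes (Nqo1, Gclc, Gclm, Txnrd1, Srxn1, Slc7a11 and Prdx1) and lower for 1 (Keap1). Over all genes tested, 13.9% were called higher and 19.1% lower in KO than in ΔTAD cells, and the median of the 10 genes was 0.31 on the log2 scale beside -0.03 for all. Without ΔTAD replicate 1 the calls over all genes were even, with 2293 higher and 2274 lower in KO. The members then stayed at 7 and 1, with a median of 0.35 beside -0.001 for all genes. With scaling by library size alone, the same counts were 7 and 0, and 69% of the calls over all genes were higher in KO, against 42.1% with the scaling used here. Slc7a11 differed by 0.90 ± 0.04 (adjusted p = 1.68e-14 in edgeR), Srxn1 by 0.56 ± 0.04, Gclm by 0.53 ± 0.03 and Prdx1 by 0.41 ± 0.03, with adjusted p-values of 1.93e-11, 2.06e-12 and 1.29e-09. Txnrd1 differed by 0.21 ± 0.03 and Gclc by 0.18 ± 0.03, with edgeR adjusted p-values of 7.72e-06 and 0.000197. For Nqo1 the difference was 1.69 ± 0.37 (adjusted p = 0.000642 in edgeR). Gsr was higher by 0.10 in KO, with a 95% interval of 0.02 to 0.18 and an adjusted p of 0.0404, and was not called.

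The lower Keap1 level in KO than in ΔTAD cells, -0.17 ± 0.05 with an edgeR adjusted p of 0.00475, depended on which libraries entered. Its groups overlapped through ΔTAD replicate 1. Without that library the difference was -0.19 with an adjusted p of 0.000865, but the call was lost without KO replicate 2 or 3 or without ΔTAD replicate 2 or 3, where adjusted p-values in edgeR were 0.0309, 0.0171, 0.0477 and 0.0226. Nfe2l2 did not pass the test, with 0.01 and a 95% interval of -0.07 to 0.09 (edgeR adjusted p = 0.846).

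Gclm, Slc7a11 and Prdx1 were thus called higher in KO and lower in ΔTAD cells against the shared wild-type libraries. Of all 14312 genes, 99 (0.692%) had this pair of calls, while 2477 (17.3%) were higher and 2197 (15.4%) lower in both edited genotypes. Among the 10 genes, 2 were higher in both (Gclc and Srxn1) and 1 was lower in both (Gsr). The reverse pair, lower in KO and higher in ΔTAD cells, had 81 genes (0.566%) and none of the 10. All members called against wild-type in either genotype were called without ΔTAD replicate 1 too, with log2 fold changes in ΔTAD cells of -0.25 for Gclm, -0.78 for Slc7a11 and -0.25 for Prdx1 and edgeR adjusted p-values of 2.08e-06, 1.04e-16 and 1.55e-07.

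Ratios of 2 genes within a library do not depend on how libraries are scaled. They still carry any trend of a library over GC content and length, which was not corrected in them. Reads from the exons that Gclm and Keap1 share with other genes also enter. The log2 ratio of Gclc to Gclm counts was -0.09 ± 0.02 (SD, n = 3) in wild-type, 0.17 ± 0.003 in KO and 0.53 ± 0.02 in ΔTAD libraries. The catalytic subunit transcript was thus higher relative to the modifier in every KO and ΔTAD library than in any wild-type library, and the 3 groups did not overlap. The ratio of Slc7a11 to Slc3a2, which encodes the heavy chain that carries the antiporter to the membrane, was -1.12 ± 0.09 on the log2 scale in wild-type, -0.81 ± 0.05 in KO and -1.68 ± 0.13 in ΔTAD libraries, again without overlap. Slc3a2 itself was lower in both genotypes, by -0.13 ± 0.04 in KO and -0.15 ± 0.04 in ΔTAD cells (edgeR adjusted p = 0.00392 and 0.000806). The log2 ratio of Nfe2l2 to Keap1 was 1.41 ± 0.07 in wild-type, 1.57 ± 0.05 in KO and 1.40 ± 0.16 in ΔTAD libraries, where KO was above wild-type in every library and ΔTAD overlapped with both. In an exact two-sided permutation test, 3 libraries against 3 cannot give a p below 0.1. This lowest value was reached by 7 of the 9 comparisons of these ratios, those without overlap (0.129 after Benjamini-Hochberg adjustment over the 9). How often other pairs of genes would reach it was not tested, so the count shows nothing particular to these pairs. The other values were p = 1 for Nfe2l2 to Keap1 in ΔTAD against wild-type and p = 0.2 in KO against ΔTAD cells, by the same exact test.

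**Figure D4:**
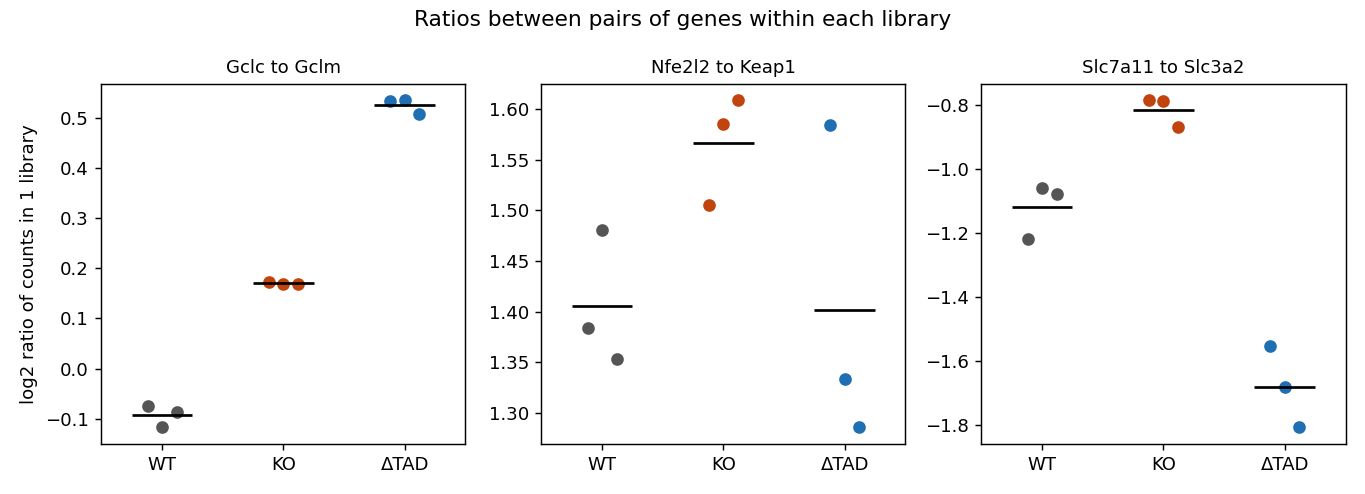
Log2 ratio of counts of 2 genes within each library (y axes do not start at 0) for Gclc to Gclm, Nfe2l2 to Keap1 and Slc7a11 to Slc3a2; points are the 3 libraries of each genotype and lines their mean. Gclc to Gclm separates all 3 genotypes, from a mean of -0.09 in wild-type to 0.53 in ΔTAD libraries, while Nfe2l2 to Keap1 does not separate ΔTAD from wild-type.

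The partners and regulators of NRF2 were examined as a list of 15 genes, of which 12 could be tested. In KO cells 5 were higher and 1 lower, and in ΔTAD cells 6 were higher and 3 lower (5 and 3 without ΔTAD replicate 1), with medians of 0.09 and 0.14. The shares over all genes were 22.8% higher and 22.4% lower in KO and 26.3% and 23.4% in ΔTAD cells. Maff, a small MAF protein that can pair with NRF2, was low at 2.59, 3.70 and 2.97 CPM in wild-type and rose to 6.28 to 6.59 in KO and 3.99 to 5.90 in ΔTAD libraries. Its log2 fold changes were 1.07 ± 0.16 and 0.64 ± 0.17 (edgeR adjusted p = 3.25e-06 and 0.00192). The other small MAF genes, Mafg and Mafk, were not called in KO (0.03 and -0.05) and fell in ΔTAD cells (-0.18 and -0.23).

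Bach1, a repressor that competes with NRF2 for the same elements, rose from 23.4 to 28.3 CPM in wild-type to 41.4 to 43.4 in KO and 44.5 to 48.0 in ΔTAD libraries. The log2 fold changes were 0.71 ± 0.06 and 0.84 ± 0.06 (edgeR adjusted p = 5.87e-10 and 1.58e-11). Sqstm1, whose protein p62 binds KEAP1 and is itself an NRF2 target, rose by 0.65 ± 0.03 in KO and 0.44 ± 0.03 in ΔTAD cells, from 453 ± 14.1 CPM to 712 ± 10.6 and 616 ± 11.2 (SD, n = 3). Cul3, the ligase scaffold, fell by 0.15 and 0.26 on the log2 scale. Bach2, Nfe2 and Nfe2l3 had too few counts to be tested.

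Other known NRF2 targets were called in both directions, as all genes were. Of 35 listed genes 28 were tested, and 12 were higher and 5 lower in KO cells, against 12 higher and 9 lower in ΔTAD cells, with medians of 0.06 and 0.11. Over all genes 22.8% were higher and 22.4% lower in KO, and 26.3% and 23.4% in ΔTAD cells. The lower calls, 5 and 9 of 28, were not far from these shares, while the higher calls, 12 of 28 in each genotype, lay above them. The shares do not take level into account, and abundant genes are called at smaller changes. The median level of all tested genes was 22.5 CPM, and several listed targets were far above it. The list was also chosen with earlier results of these data known, so no result about NRF2 targets is drawn from these counts. Fth1, the heavy chain of the iron store ferritin, rose from 1543 ± 47.7 CPM in wild-type to 3699.7 ± 36.7 in KO and 3007 ± 25.3 in ΔTAD cells, which is 1.26 ± 0.02 and 0.96 ± 0.02 on the log2 scale (edgeR adjusted p = 1.91e-23 and 2.55e-21). Reads of Fth1 can be shared with its processed pseudogenes. Prdx6, a peroxiredoxin that uses glutathione, fell from 365 ± 3.10 CPM to 213 ± 5.97 in KO and 181 ± 0.57 in ΔTAD cells. Ptgr1, a reductase of reactive aldehydes and prostaglandins, was at 23.6 ± 1.17, 18.9 ± 1.19 and 12.1 ± 0.71 CPM in the 3 genotypes, with log2 fold changes of -0.31 ± 0.07 and -0.97 ± 0.08. Gstp1 had 28, 22 and 10 counts in wild-type, 5, 4 and 0 in KO and 13, 8 and 17 in ΔTAD libraries. It was called lower in KO (-2.66 ± 0.53, edgeR adjusted p = 0.000147), but it has near-identical copies among which reads can be split, so this value is uncertain. Hmox1, the heme-degrading enzyme and a further classical target, was added after its values were seen and stood at -0.06 in KO (adjusted p = 0.207) and -0.35 in ΔTAD cells (2.52e-08 in edgeR).

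Genes of glutathione and thioredoxin metabolism outside the 10 were more often lower than higher in KO cells. Of 22 tested, 4 were higher and 12 lower in KO, and 6 were higher and 7 lower in ΔTAD cells, with medians of -0.17 and -0.003. Over all genes 22.8% were higher and 22.4% lower in KO, and the ΔTAD counts lay near the 26.3% and 23.4% of all genes. Ggct, which acts in glutathione breakdown, fell from 11.5 ± 0.16 CPM to 6.79 ± 0.44 and 5.64 ± 0.27, and Glrx5, a mitochondrial glutaredoxin for iron-sulfur clusters, fell from 122.5 ± 3.52 to 66.8 ± 0.42 and 70.1 ± 0.87. Gpx1, the main cytosolic glutathione peroxidase, rose by 0.37 ± 0.04 in KO and 0.83 ± 0.04 in ΔTAD cells, and Prdx2 rose by 0.46 ± 0.05 and 0.75 ± 0.04, with edgeR adjusted p-values from 1.46e-15 to 6.92e-09 for these 4 values.

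Slc7a11 is also a target of ATF4, the factor of the amino acid and stress response, so ATF4 and its targets were listed as well. Of 12 tested genes, 5 were higher and 4 lower in KO and 3 were higher and 1 lower in ΔTAD cells, where 26.3% of all genes were called higher and 23.4% lower. The KO shares over all genes were 22.8% and 22.4%. Atf4 was not called in either genotype (0.09 and 0.04, edgeR adjusted p = 0.0219 and 0.283). Atf3, a stress-induced factor, rose from 15.4 to 19.2 CPM in wild-type to 53.0 to 60.4 in KO and 52.8 to 58.3 in ΔTAD libraries, by 1.68 ± 0.07 and 1.69 ± 0.07 on the log2 scale. Chac1, which degrades glutathione, was low and rose in KO from 2.19 ± 0.45 to 5.36 ± 0.79 CPM (1.30 ± 0.18, edgeR adjusted p = 1.41e-06). In ΔTAD cells its value was 0.58 ± 0.20 with an adjusted p of 0.0145, and 0.67 with 0.00493 without ΔTAD replicate 1. Trib3 rose in KO by 0.70 ± 0.16 and Ddit4 fell there by 0.93 on the log2 scale (edgeR adjusted p = 0.000697 and 0.000291), while neither was called in ΔTAD cells.

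**Figure D5:**
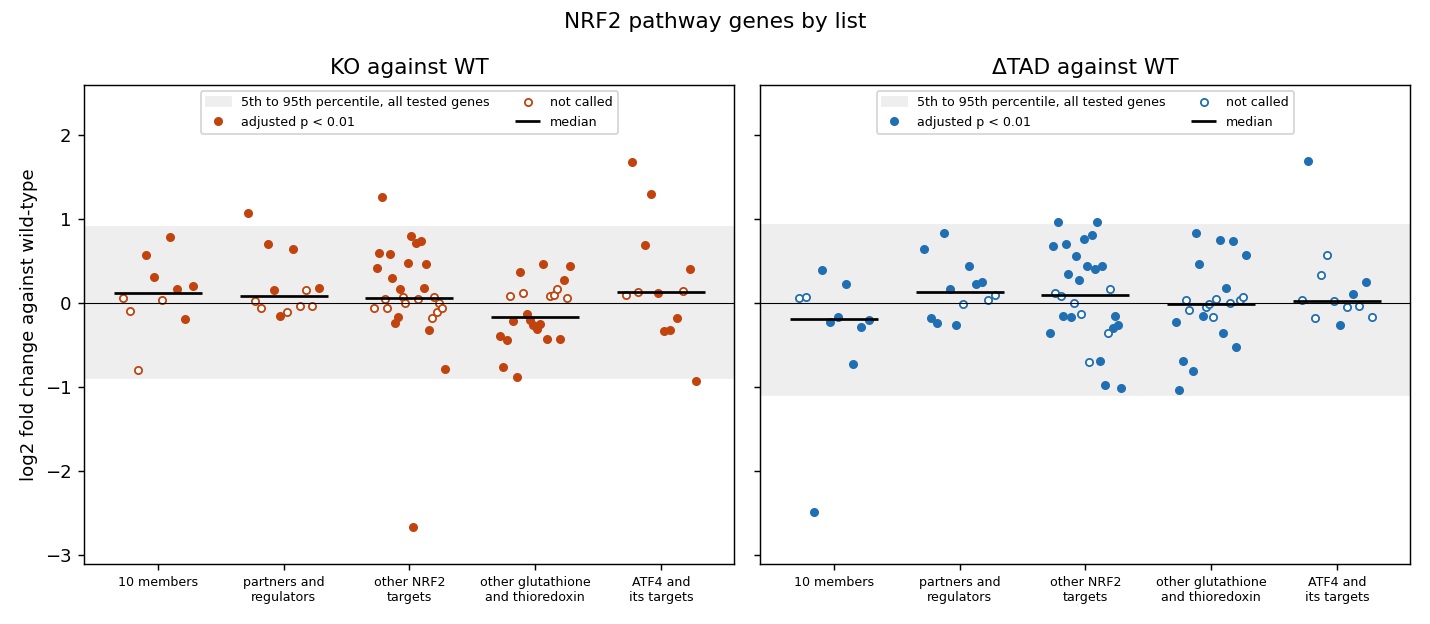
Log2 fold change against wild-type (y axis) of each tested gene in 5 lists, in KO (left) and ΔTAD (right) macrophages; filled points have an edgeR adjusted p under 0.01, lines are medians and the grey band spans the 5th to 95th percentile of all tested genes. Most points lie inside the band, and the median of the 10 genes is 0.12 in KO and -0.18 in ΔTAD cells.

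Finally, the genes whose level over the 9 libraries was most like that of the 3 members with the widest range were listed by Pearson's r of log2 CPM, leaving out genes whose mean was under 1 CPM or whose group means spanned less than 0.5 of the member's own range. That left 1138 genes to compare with Nqo1, 4850 with Slc7a11 and 5511 with Srxn1. For Nqo1 these were Zfp9 (r = 0.983), Acot1 (0.977) and Zfp748 (0.9748), for Slc7a11 6720427I07Rik (0.997), Zfp65 (0.992) and Alcam (0.991), and for Srxn1 Rgs2 (0.992), Cd9 (0.991) and Gab2 (0.990). Many other genes came close, with 83 above an r of 0.9 for Nqo1, 224 for Slc7a11 and 234 for Srxn1. The 9 points are 3 groups of libraries, so r mainly follows the order and spacing of the 3 group means.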

How the data were processed

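Libraries of 3 samples per genotype were made from total RNA after removal of ribosomal RNA and read from one end. Trimmomatic (version 0.36 per the submitters' processing notes) was used by the authors for trimming, HISAT2 for alignment against GRCm38, and HTSeq for counting per Ensembl gene. The strand and overlap settings of the counting are not given in the sources used here. The deposited values are raw read counts per gene, without normalization. The 5 tally lines at the end of each list were left out of library sizes, and genes received 46.65% to 53.23% of all records.

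Counts were fitted with edgeR 4.0.16 in R 4.3.3: filterByExpr (minimum count 10, minimum total 15, 14312 genes left), TMM scaling (factors 0.888 to 1.027), and 1 quasi-likelihood model of all 9 libraries with a mean per genotype (common biological coefficient of variation 0.0468). Genes with a Benjamini-Hochberg adjusted p under 0.01 over all tested genes were called. Standard errors are the log2 fold change over the square root of F. Positions, exons and overlaps are those of GENCODE on GRCm38, and 55141 of 55487 identifiers had a symbol. Ratios within a library used a pseudocount of 0.5 and exact permutation tests (scipy 1.17.1). Neighbors are the 10 tested genes on either side of a gene.

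The 10 members and all other lists were chosen with earlier results of these data known. The rule for named genes took all 10 members, up to 4 genes with the largest change from each other list (called, at least 1 CPM in the higher genotype, no overlap between libraries), Slc3a2, Atf4, the Maf and Bach genes, and the 3 genes most like each of 3 members. As alternatives, limma-voom (limma 3.58.1) and DESeq2 1.42.0 served as the test, DESeq2-type size factors and library size alone as the scaling; other filters, fits of 2 genotypes, a replicate block, a threshold of 0.05 and leaving out each library were also tried. Scaling without chromosomes 12 and 17, an offset for GC content and length (14294 genes) and the lists without ΔTAD replicate 1 were added after seeing the data. The fit and calls for KO against wild-type were also run on simulated counts. These had few changed genes and no library that stands apart, so the run does not check calling under the wide changes seen here.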

Additional observations from a re-analysis of the deposited data

Results flagged for a closer look

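The genes Slc7a11, Gclm and Prdx1 moved in opposite directions in the edited genotypes, higher in KO and lower in ΔTAD macrophages than in wild-type. They were flagged by a rule that required opposite calls and a called difference between KO and ΔTAD in edgeR. That direct difference is therefore part of the choice and no separate support. Slc7a11 was 0.18 higher in KO and -0.72 in ΔTAD cells on the log2 scale, a difference of 0.90. Gclm was at 0.31 and -0.22, a difference of 0.53. Prdx1 was at 0.21 and -0.20, a difference of 0.41. After the GC and length correction the ΔTAD value of Prdx1 was -0.06 (edgeR adjusted p = 0.0542) and the KO value of Slc7a11 was 0.10, and with scaling by library size alone the latter was 0.16 and not called (adjusted p = 0.0208). The 20 genes nearest to Gclm and Slc7a11 had medians of -0.32 and -0.29 in ΔTAD cells. Those nearest to Prdx1 had medians of 0.15 in KO and 0.04 in ΔTAD cells. For each of Slc7a11, Gclm and Prdx1, all 3 KO libraries were above, and all 3 ΔTAD libraries below, the wild-type libraries. This too largely follows from the calls by which they were chosen.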

How the results depend on the processing

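Of 597 values of single members under alternatives, 574 kept their direction and their side of the threshold, and 12 lost and 5 gained a call. The 6 that changed sign belong to differences that were not called: Keap1 in ΔTAD against wild-type (-0.0144 with library size alone, -0.0639 with the GC and length offset), Nfe2l2 in ΔTAD against wild-type (-0.0326 with library size alone) and Nfe2l2 in KO against ΔTAD (-0.0075 with every gene with at least 1 count, -0.0112 without KO replicate 3, -0.0299 without ΔTAD replicate 3, a range of -0.0299 to 0.063 over the left-out libraries). The number of members called lower in KO than in ΔTAD cells was 1, which is Keap1, and 0 with DESeq2, library size alone, only the 2 genotypes compared, scaling without chromosomes 12 and 17 or the GC and length offset, and from 0 to 1 when a library was left out. The number called higher in ΔTAD cells was 1 with library size alone (Srxn1 lost), and the number called lower in KO cells was 2 at an adjusted p under 0.05 (Nqo1 added). Smaller moves were 4 (library size alone) or 6 (GC and length offset) in place of 5 called higher in KO, 5 in place of 6 called lower in ΔTAD cells (at least 10 counts in every library, which removes Nqo1, and the GC and length offset), and in place of 7 called higher in KO than in ΔTAD cells 6 (at least 10 counts in every library) or 8 (only the 2 genotypes compared, an adjusted p under 0.05, the GC and length offset). The other causes were not tested. Leaving out a library gave 5845 to 6733 called genes for KO and 6454 to 7116 for ΔTAD against wild-type. The log2 difference of the Nfe2l2 to Keap1 ratio between ΔTAD and wild-type, -0.005, ranged from -0.0962 to 0.0529. Same-numbered libraries showed no strong shared deviation (correlations of -0.07 to 0.02). With 3 libraries a genotype and ΔTAD replicate 1 standing apart, this cannot exclude a weaker pairing by number. With the replicate number as a block, members called were the same in number, 5 and 1, 2 and 6, and 7 and 1 (higher and lower), and 6279, 6900 and 4465 genes were called in all. No library scaling moved the median of all genes by more than 0.09. With 3 libraries a genotype, Nqo1 rests on 4 to 36 counts a library.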
